A study of Mus musculus with 27 samples.

Results

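The genes described here serve MHC class I antigen processing and presentation, and 10 of them were taken by name from the 50559 genes of the count table. They comprised the classical heavy chains H2-K1 and H2-D1, the non-classical heavy chain H2-T23, the light chain B2m, the peptide transporter subunits Tap1 and Tap2, the loading factor Tapbp, the immunoproteasome subunits Psmb8 and Psmb9, and the transcriptional co-activator Nlrc5. In the mouse genome, 8 of them lie on chromosome 17, B2m on chromosome 2 and Nlrc5 on chromosome 8, and all 10 passed the filter on low counts. MHC class I molecules display peptides of intracellular proteins to CD8 T cells and to NK cell receptors. The peptides are cut by the proteasome, pumped into the endoplasmic reticulum by the TAP transporter and loaded there onto the heavy chain paired with B2m, and in macrophages most of these genes are induced by interferons.

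Bone marrow-derived macrophages came from age-matched female C57BL/6 mice between 3 and 4 months old, either wild type (WT) or lacking the mitochondrial chaperone TRAP1 (TRAP1 KO). One part of the cells stayed unpolarized (Mφ, named M0 in the labels), and the other received IL-4 (10 ng/mL, 24 h) to become M2. Both cell types were then kept for 48 h in control medium (DMEM) or in the medium conditioned by cells of malignant peripheral nerve sheath tumor (MPNST-CM). Genotype, cell type and medium gave 8 groups, each with 3 libraries of batch 1, and the 24 libraries of batch 1 carry all values below unless stated otherwise. The labels do not say whether replicates came from separate mice or whether mice were pooled, so p-values measure the spread between these libraries, which may be technical.

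The libraries held 7037684 to 9089792 counts, of which the 10 class I genes took 0.663% to 1.62%. Levels are TMM-scaled CPM (counts per scaled library size), given as values of replicates or as mean ± SD (n = 3). Trap1, the targeted gene, reached 10.4 to 18.8 CPM in WT and had 0 counts, which allow up to 3 by counting error alone, in every TRAP1 KO library of batch 1. Xist, which is transcribed in female cells, ranged from 253 to 503 CPM in WT and was at most 1.14 CPM in TRAP1 KO, although the labels call all mice female, so that within batch 1 this difference and the genotype cannot be told apart. The summed macrophage markers (7 genes) lay between 7816 and 12080 CPM, whereas the T and NK cell markers (8 genes) reached at most 5.10 CPM and the B cell markers (5 genes) at most 3.98 CPM, with Cd3e, Cd3d, Gzmb, Cd79a and Pax5 among those under 3 counts in every library. Dendritic cell markers (8 genes) were highest in WT M2 in control medium (42.3 to 49.5 CPM) and between 8.05 and 32.4 CPM in the other groups. Neutrophil markers (7 genes) lay between 1.62 and 20.4 CPM, and fibroblast and Schwann lineage markers (8 genes) between 2.20 and 12.6 CPM, with Retnlg, Col3a1, Pdgfra and Sox10 under 3 counts in every library. Their part in the differences below was not tested. Of the 3 libraries of batch 2, those labelled TRAP1 KO M2 replicate 4 had 0 counts of Trap1 in MPNST-CM and 2 in control medium, against 252 in the WT library, so Trap1 bore out their genotype label. Their Xist was at 307 and 403 CPM (scaled over 27 libraries), within the range of WT, and they are the TRAP1 KO libraries in which Xist was not low. Over all genes both were closer to another group than to the one on their label. The one in MPNST-CM correlated best with WT M2 in control medium (Spearman's rho 0.983, against 0.950 with its own group) and the one in control medium with TRAP1 KO Mφ in MPNST-CM (0.970 against 0.915). In the same order and scaled over 27 libraries, these 2 libraries had 1622 and 2256 CPM of H2-K1, 3962 and 2975 of H2-D1, and 7413 and 9204 of B2m. Whether these levels go with Trap1 or with Xist was not tested.

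In batch 1, 2 libraries had many genes far below the others of their groups, replicate 1 of WT Mφ in MPNST-CM and replicate 2 of TRAP1 KO M2 in control medium. Among 9730 genes with a mean of at least 5 CPM, 240 and 210 genes were below 0.5 times the lowest other library of the group, against 4 to 29 genes in the other 22 libraries. Of these genes 134 were shared, 55.8% of the first list and 63.8% of the second, and both lists held Tap2, Psmb9 and H2-T23. The limits of 5 CPM and 0.5 times were chosen after the values were seen, and the cause was not tested. Results on Tap2, Psmb9 and H2-T23 are therefore given with and without these libraries.

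Over all counts, replicate 1 lay far from the other replicates in 5 groups, namely Mφ of both genotypes in both media and WT M2 in MPNST-CM. The chi-square per degree of freedom between replicate 1 and the others was 16.04 to 37.4 in these groups, against 2.11 to 3.42 between the others themselves and 2.76 to 13.1 in the remaining 3 groups. The deviations of these 5 libraries from their group means moved together across genes (Pearson's r 0.377 to 0.521 over 10 pairs of libraries). H2-D1, B2m, H2-T23, Tap2 and Psmb9 were lowest of the group in replicate 1 in all 5. The labels do not say what the libraries numbered 1 share, WT M2 in control medium has no replicate 1, and the cause was not tested. Without these 5 libraries (at least 3 times as far from the others as those from each other, a limit chosen after the values were seen), 61 of the 62 calls among the 10 genes (adjusted p under 0.05 in edgeR's quasi-likelihood test, over 14 comparisons) were made in the same direction, and 9 others were made. MPNST-CM in WT M2 then gave log2 fold changes of -0.28 for H2-K1, -0.25 for H2-D1 and -0.24 for B2m, against -0.44, -0.40 and -0.38. TRAP1 KO against WT in M2 in MPNST-CM gave 0.73, 0.62 and 0.56, against 0.90, 0.78 and 0.71. In Mφ in MPNST-CM it gave 1.19, 1.20 and 0.98, against 1.08, 1.24 and 1.07. A term for the replicate number in the fit ended 3 calls, namely Tap1 for MPNST-CM in WT M2 (log2 fold change -0.25, adjusted p = 0.0551) and the interactions in M2 of Psmb9 (log2 fold change 1.23, adjusted p = 0.0894) and Nlrc5 (log2 fold change 0.48, adjusted p = 0.106). In batch 1 only replicate 4 of WT M2 in control medium bears the number 4, so the term for that number fits this library alone. All 3 calls use its group, and leaving out only this library gave log2 fold changes of -0.24, 1.29 and 0.47.

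The first question was whether class I genes differed between TRAP1 KO and WT macrophages. All called differences were higher in TRAP1 KO. In M2 more genes were called in MPNST-CM than in control medium (7 against 1), whereas in Mφ 4 were called in MPNST-CM and 5 in control medium. In bulk samples, fewer cells of a type and less RNA per cell cannot be told apart. In Mφ in MPNST-CM, 4 of the 10 genes rose in TRAP1 KO (H2-D1, H2-K1, B2m and Tap1) and none fell, while of the 13614 genes tested 19.1% were higher and 19.2% lower (median log2 fold change of the 10 genes 0.85, of all genes tested 0.043). In M2 in MPNST-CM, 7 of the 10 rose (Tap1, H2-K1, H2-D1, B2m, Nlrc5, Psmb8 and Psmb9), beside 17.2% of all genes higher and 16.8% lower (median log2 fold change of the 10 genes 0.77, of all genes tested 0.053). In control medium, 5 of the 10 rose in Mφ (Tapbp, H2-D1, H2-K1, B2m and Tap1), beside 8.64% of all genes higher (median log2 fold change of the 10 genes 0.42, of all genes tested 0.027). In M2 in control medium only H2-D1 was called, 1 of the 10, beside 8.56% of all genes higher (median log2 fold change of the 10 genes 0.11, of all genes tested 0.017), and 4 of the 10 had an unadjusted p under 0.05. Calls are those of edgeR's quasi-likelihood test at a Benjamini-Hochberg adjusted p under 0.05 over all genes tested, and the comparisons in Mφ and in M2 use different libraries.

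**Figure D1:**
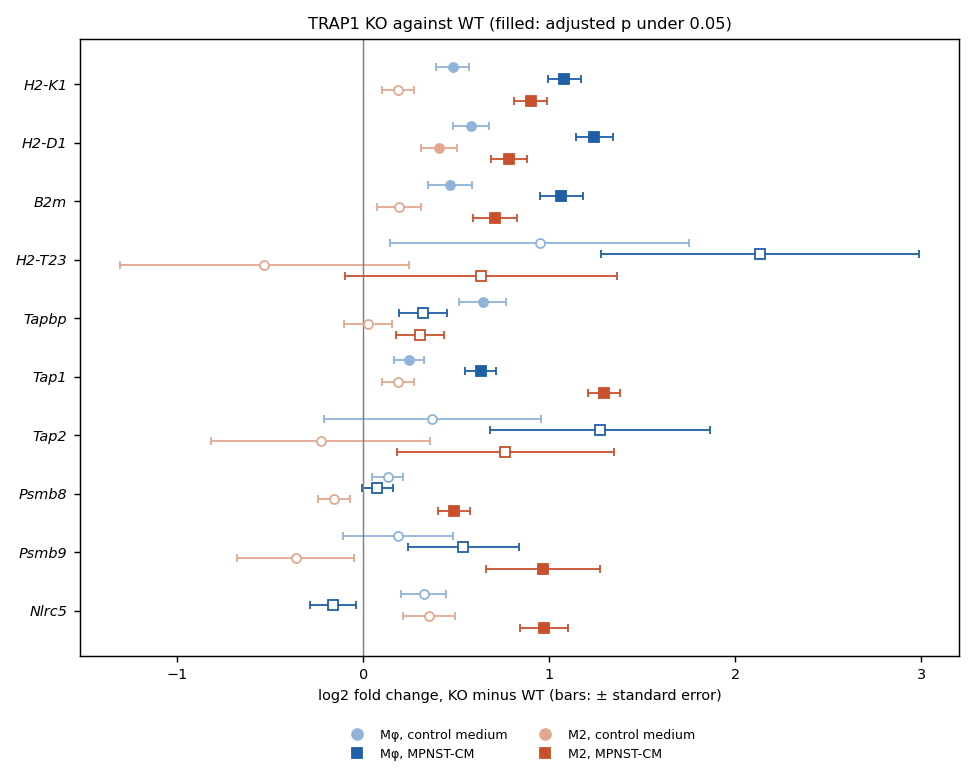
Log2 fold change of each class I gene between TRAP1 KO and WT macrophages (x axis, KO minus WT, bars ± standard error), by gene (y axis), for Mφ (blue) and M2 (orange) in control medium (light circles) and MPNST-CM (dark squares), with filled symbols where the adjusted p was under 0.05. The filled symbols lie to the right of 0, from 0.25 (Tap1, Mφ in control medium) to 1.29 (Tap1, M2 in MPNST-CM), and H2-T23 and Tap2 have the longest bars.

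The second question was how MPNST-CM moved these genes in each genotype. In WT cells every called gene fell in MPNST-CM, 4 of 10 in Mφ (beside 9.96% of all genes lower, median log2 fold change of the 10 genes -0.44, of all genes tested -0.015) and 5 of 10 in M2 (beside 13.3% lower, median log2 fold change of the 10 genes -0.31, of all genes tested -0.029). H2-K1, H2-D1, B2m and Tap1 fell in both cell types, and Tapbp fell in M2. In TRAP1 KO Mφ, H2-K1 rose while Nlrc5 and Tapbp fell, 3 of 10 beside 32.9% of all genes differing in either direction (median log2 fold change of the 10 genes 0.11, of all genes tested -0.042). In TRAP1 KO M2, 5 of 10 rose (Tap1, Psmb8, Nlrc5, Psmb9 and H2-K1) and none fell, beside 16.7% of all genes higher (median log2 fold change of the 10 genes 0.62, of all genes tested -0.012). The interaction of genotype and medium tested the difference between the responses, as the log2 response of TRAP1 KO minus that of WT. It was positive for H2-K1, H2-D1, B2m and Tap1 in Mφ (4 of 10, beside 8.17% of all genes positive) and for H2-K1, B2m, Tap1, Psmb8, Psmb9 and Nlrc5 in M2 (6 of 10, beside 9.36% positive).

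**Figure D2:**
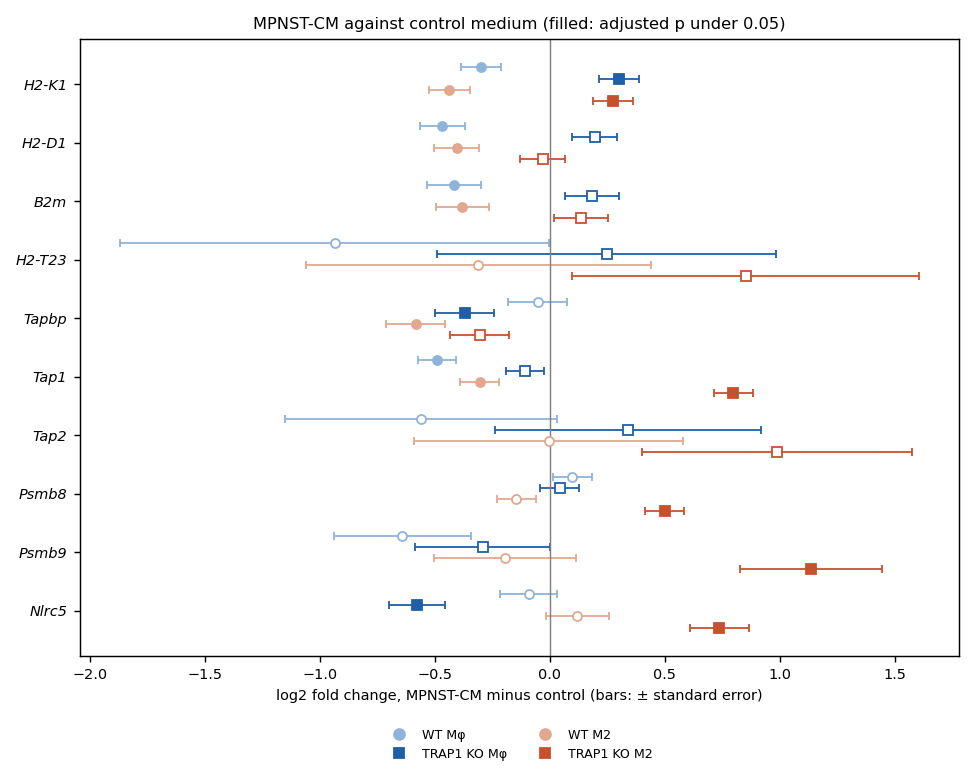
Log2 fold change of each class I gene between MPNST-CM and control medium (x axis, bars ± standard error), by gene (y axis), for WT (light circles) and TRAP1 KO (dark squares) in Mφ (blue) and M2 (orange), with filled symbols where the adjusted p was under 0.05. Filled WT symbols lie between -0.58 and -0.30, and filled symbols of TRAP1 KO M2 lie between 0.28 and 1.14.

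H2-K1 encodes the K heavy chain, which binds the peptide. In WT Mφ, H2-K1 had 1108, 1179.8 and 1229.9 CPM in control medium and 1003, 932 and 925 CPM in MPNST-CM. In TRAP1 KO Mφ, H2-K1 had 1513, 1681 and 1719 CPM in control medium and 1755, 2172 and 2125 CPM in MPNST-CM. The media did not overlap in either genotype, and they were ordered oppositely, with MPNST-CM lower in WT and higher in TRAP1 KO. In WT M2, H2-K1 had 1423, 1376 and 1344 CPM in control medium and 884, 1091 and 1085 CPM in MPNST-CM. In TRAP1 KO M2, H2-K1 had 1523, 1692 and 1500.4 CPM in control medium and 1922, 1972 and 1817 CPM in MPNST-CM. The same order was seen in M2, and every TRAP1 KO library lay above every WT library in both cell types. In MPNST-CM, H2-K1 was 2.12-fold higher in TRAP1 KO Mφ (log2 fold change 1.08 ± 0.088, adjusted p = 1.57e-10) and 1.87-fold higher in TRAP1 KO M2 (log2 fold change 0.90 ± 0.088, adjusted p = 5.81e-09). In control medium it was 1.396-fold higher in TRAP1 KO Mφ (log2 fold change 0.48 ± 0.088, adjusted p = 2.08e-04), whereas the difference in M2 was not called (log2 fold change 0.19 ± 0.087, adjusted p = 0.154). MPNST-CM lowered it in WT Mφ (log2 fold change -0.30 ± 0.087, adjusted p = 0.0147) and WT M2 (log2 fold change -0.44 ± 0.088, adjusted p = 4.08e-04). It raised H2-K1 in TRAP1 KO Mφ (log2 fold change 0.30 ± 0.087, adjusted p = 0.00852) and TRAP1 KO M2 (log2 fold change 0.28 ± 0.087, adjusted p = 0.0139). The interaction was 0.60 ± 0.12, adjusted p = 6.80e-04 in Mφ and 0.71 ± 0.12, adjusted p = 9.66e-05 in M2. Of these calls, that in WT Mφ was lost without replicate 2 or 3 of WT Mφ in MPNST-CM or replicate 3 of WT Mφ in control medium (log2 fold change between -0.28 and -0.26, adjusted p between 0.0514 and 0.0725). That in TRAP1 KO Mφ was lost without replicate 2 of TRAP1 KO Mφ in MPNST-CM or replicate 1 of TRAP1 KO Mφ in control medium (log2 fold change between 0.24 and 0.25, adjusted p between 0.0567 and 0.0636), and that in TRAP1 KO M2 without replicate 2 of TRAP1 KO M2 in MPNST-CM or replicate 3 of TRAP1 KO M2 in control medium (log2 fold change between 0.25 and 0.26, adjusted p between 0.0571 and 0.0678).

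H2-D1 encodes the D heavy chain. H2-D1 was at 1900.1, 2186 and 2190.1 CPM in WT Mφ in control medium and at 1289.9, 1677 and 1573 CPM in MPNST-CM. H2-D1 was at 2759.7, 3279 and 3346 CPM in TRAP1 KO Mφ in control medium and at 3157, 3858 and 3729 CPM in MPNST-CM. MPNST-CM was below control medium in every WT library, and the media overlapped in TRAP1 KO. H2-D1 was at 3128, 2867 and 2890.3 CPM in WT M2 in control medium and at 1971, 2358 and 2383 CPM in MPNST-CM. H2-D1 was at 3999.9, 3825 and 3971 CPM in TRAP1 KO M2 in control medium and at 3827, 3881 and 3836 CPM in MPNST-CM. The pattern was the same in M2, and within each cell type every TRAP1 KO library was above every WT library. TRAP1 KO exceeded WT 2.37-fold in Mφ in MPNST-CM (log2 fold change 1.24 ± 0.099, adjusted p = 9.98e-11) and 1.72-fold in M2 in MPNST-CM (log2 fold change 0.78 ± 0.098, adjusted p = 4.48e-07). In control medium it did so 1.495-fold in Mφ (log2 fold change 0.58 ± 0.098, adjusted p = 8.10e-05) and 1.33-fold in M2 (log2 fold change 0.41 ± 0.098, adjusted p = 0.00417). The last of these was lost without replicate 3 of WT M2 in control medium (log2 fold change 0.36, adjusted p = 0.0523). MPNST-CM lowered H2-D1 in WT Mφ (log2 fold change -0.47 ± 0.098, adjusted p = 9.44e-04) and WT M2 (log2 fold change -0.40 ± 0.098, adjusted p = 0.00269). No change was called in TRAP1 KO Mφ (log2 fold change 0.20 ± 0.098, adjusted p = 0.136) or TRAP1 KO M2 (log2 fold change -0.031 ± 0.098, adjusted p = 0.843). The WT M2 call was lost without replicate 1 of WT M2 in MPNST-CM or replicate 2 of WT M2 in control medium (log2 fold change between -0.31 and -0.25, adjusted p between 0.0697 and 0.101), and a rise in TRAP1 KO Mφ was called without replicate 1 of TRAP1 KO Mφ in MPNST-CM (log2 fold change 0.28, adjusted p = 0.0391). The interaction was 0.66 ± 0.14, adjusted p = 7.76e-04 in Mφ, and it was not called in M2 (0.37 ± 0.14, adjusted p = 0.0565), where it was called without replicate 3 of WT M2 in MPNST-CM (log2 fold change 0.42, adjusted p = 0.0496).

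B2m encodes beta-2 microglobulin, the light chain that all of these heavy chains need to reach the cell surface. WT Mφ had 4544, 5677 and 5735 CPM of B2m in control medium, and 3177, 4593 and 4172 CPM in MPNST-CM. TRAP1 KO Mφ had 6397, 7537 and 8101 CPM of B2m in control medium, and 7434, 8771 and 8796 CPM in MPNST-CM. All TRAP1 KO libraries of Mφ were above all WT libraries, and the media overlapped in both genotypes. WT M2 had 7154, 6949 and 7342 CPM of B2m in control medium, and 4960.0, 5688 and 5819 CPM in MPNST-CM. TRAP1 KO M2 had 8548, 7268 and 8686 CPM of B2m in control medium, and 8910.5, 8503 and 9494 CPM in MPNST-CM. In WT M2 the media did not overlap, whereas they did in TRAP1 KO, and the genotypes overlapped in control medium. TRAP1 KO exceeded WT 2.09-fold in Mφ in MPNST-CM (log2 fold change 1.07 ± 0.12, adjusted p = 5.79e-08) and 1.63-fold in M2 in MPNST-CM (log2 fold change 0.71 ± 0.12, adjusted p = 3.05e-05). In control medium B2m was 1.38-fold higher in TRAP1 KO Mφ (log2 fold change 0.47 ± 0.12, adjusted p = 0.00555), and in M2 the test missed the threshold (log2 fold change 0.19 ± 0.12, adjusted p = 0.287). Without the 5 far libraries of replicate 1, the M2 difference was called for B2m (log2 fold change 0.19, adjusted p = 0.0114), H2-K1 (log2 fold change 0.18, adjusted p = 0.00614) and Tap1 (log2 fold change 0.19, adjusted p = 0.0481). With all 24 libraries these log2 fold changes were 0.19, 0.19 and 0.19. None of the 5 libraries belongs to the compared groups, and the fit shares its estimate of spread over the 8 groups, so these calls reflect spread in other groups. MPNST-CM lowered B2m in WT Mφ (log2 fold change -0.42 ± 0.12, adjusted p = 0.0112), a call lost without replicate 1 of WT Mφ in MPNST-CM or replicate 2 or 3 of WT Mφ in control medium (log2 fold change between -0.37 and -0.28, adjusted p between 0.0565 and 0.0805). It also lowered B2m in WT M2 (log2 fold change -0.38 ± 0.12, adjusted p = 0.0174), a call lost without replicate 1 of WT M2 in MPNST-CM or replicate 2, 3 or 4 of WT M2 in control medium (log2 fold change between -0.35 and -0.24, adjusted p between 0.09099 and 0.227). In TRAP1 KO the response was not called in Mφ (log2 fold change 0.18 ± 0.12, adjusted p = 0.256) or in M2 (log2 fold change 0.14 ± 0.12, adjusted p = 0.403). The interaction was 0.60 ± 0.16, adjusted p = 0.00985 in Mφ. In M2 it was 0.52 ± 0.16, adjusted p = 0.0272, and 8 of the 12 libraries ended this call when left out, namely replicate 3 of TRAP1 KO M2 in MPNST-CM, replicate 1 of WT M2 in MPNST-CM, replicate 1, 2 or 3 of TRAP1 KO M2 in control medium or replicate 2, 3 or 4 of WT M2 in control medium (adjusted p between 0.0584 and 0.146). Without both libraries with many low genes it was not called (log2 fold change 0.40, adjusted p = 0.05998). The last 500 bases of B2m overlap Patl2 on the opposite strand. The kit marks strand, and the strand setting of the counting is not given in the sources used here.

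Because H2-K1, H2-D1 and B2m moved together, the sequence before their transcription starts is shown. Promoters of class I heavy chains and B2m are known to carry an S-X-Y module bound by the RFX, CREB/ATF and NF-Y factors that recruit NLRC5, and upstream of it a κB element and an interferon-stimulated response element. Of the 10 genes, 8 had a RefSeq promoter entry of 300 bases (250 before and 50 after the start, build GRCm38.p6), and the first entry is shown for H2-K1, which had a further one. Tap2 and Nlrc5 were not in the table. Capitals mark TGACG (the core of the X2 element), CCAAT (the Y box) and GAANNGAAA (a motif like the interferon-stimulated response element), each on either strand, where N is any base. The last pattern does not match gaaactgaaa in the B2m sequence, where GAA and GAAA are spaced otherwise. Lower case therefore does not show that such an element is absent.
H2-K1 (chr17:34000298-34000597, minus strand): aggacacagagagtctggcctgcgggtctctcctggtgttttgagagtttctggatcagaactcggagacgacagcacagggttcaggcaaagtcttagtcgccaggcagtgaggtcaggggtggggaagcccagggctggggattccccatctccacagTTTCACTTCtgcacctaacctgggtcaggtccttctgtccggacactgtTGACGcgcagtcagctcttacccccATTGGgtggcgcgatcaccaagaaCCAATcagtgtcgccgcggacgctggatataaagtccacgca
H2-D1 (chr17:35262844-35263143, plus strand): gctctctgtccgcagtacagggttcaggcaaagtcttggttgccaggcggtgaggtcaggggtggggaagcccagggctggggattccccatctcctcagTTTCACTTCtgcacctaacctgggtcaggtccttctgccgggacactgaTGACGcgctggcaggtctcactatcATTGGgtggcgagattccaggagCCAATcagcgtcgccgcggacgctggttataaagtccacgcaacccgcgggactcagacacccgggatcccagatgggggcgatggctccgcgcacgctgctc
B2m (chr2:122147437-122147736, plus strand): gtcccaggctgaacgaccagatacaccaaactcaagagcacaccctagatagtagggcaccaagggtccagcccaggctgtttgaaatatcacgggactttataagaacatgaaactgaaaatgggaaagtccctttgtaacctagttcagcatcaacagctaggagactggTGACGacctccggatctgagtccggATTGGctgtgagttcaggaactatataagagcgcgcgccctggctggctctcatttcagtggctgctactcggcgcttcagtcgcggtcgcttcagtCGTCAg
Tap1 (chr17:34187306-34187605, plus strand): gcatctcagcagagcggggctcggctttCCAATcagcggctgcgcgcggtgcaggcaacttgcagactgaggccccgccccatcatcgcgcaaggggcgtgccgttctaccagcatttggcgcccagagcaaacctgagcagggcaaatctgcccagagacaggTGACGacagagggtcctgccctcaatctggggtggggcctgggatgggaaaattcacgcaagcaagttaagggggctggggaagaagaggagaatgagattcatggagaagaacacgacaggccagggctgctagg
The H2-K1 and H2-D1 windows were 88.3% identical over 239 aligned bases. In H2-K1, H2-D1 and B2m, TGACG on the coding strand is followed 25 bases later (first base to first base) by ATTGG, which is CCAAT on the other strand. This spacing was present in 19 of 32851 promoter entries, or 0.0578%. Alone, TGACG was in 20.8% of all entries, CCAAT in 37.4% and GAANNGAAA in 7.52%. Tap1 held TGACG and CCAAT without that spacing, and its window overlaps that of Psmb9 by 275 bases on opposite strands. The motifs and the spacing were chosen after the sequences were seen, and a match describes letters, not binding.

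H2-T23 encodes Qa-1, which presents leader peptides of other class I molecules to the NK cell receptor CD94/NKG2A. It was close to the limit of these libraries, with between 0 and 106 counts, and its group means ran from 1.68 ± 1.85 CPM (WT Mφ in MPNST-CM) to 9.09 ± 4.29 CPM (TRAP1 KO M2 in MPNST-CM). Values of H2-T23 in WT Mφ were 1.22, 4.68 and 3.98 CPM in control medium and 0, 1.38 and 3.66 CPM in MPNST-CM. Values of H2-T23 in TRAP1 KO Mφ were 5.37, 6.795 and 6.96 CPM in control medium and 2.87, 11.7 and 8.14 CPM in MPNST-CM. The largest fitted difference was between the genotypes of Mφ in MPNST-CM, where the groups overlapped and the test missed the threshold (log2 fold change 2.13 ± 0.86, adjusted p = 0.0591). It was called without replicate 1 of TRAP1 KO Mφ in MPNST-CM or replicate 3 of WT Mφ in MPNST-CM (log2 fold change between 2.52 and 3.42, adjusted p between 0.0257 and 0.0331), and with both libraries with many low genes left out it was not (log2 fold change 1.52, adjusted p = 0.102). Values of H2-T23 in WT M2 were 6.45, 4.01 and 11.4 CPM in control medium and 4.64, 6.46 and 6.41 CPM in MPNST-CM. Values of H2-T23 in TRAP1 KO M2 were 10.5, 0.401 and 4.41 CPM in control medium and 13.998, 7.22 and 6.06 CPM in MPNST-CM. The groups of M2 overlapped, and with all 24 libraries no comparison of H2-T23 was called. Of the 75-base windows in the last 500 bases of its longest coding transcript, 85 of 426 occur also in transcripts of other genes, against 0 for each of the other 9 genes, so its counts are uncertain, and its end overlaps the antisense gene A930015D03Rik.

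Tap1 and Tap2 encode the partner chains of the TAP transporter, which carries peptides into the endoplasmic reticulum. In WT Mφ, Tap1 had 112, 136 and 129 CPM in control medium and 87.3, 86.2 and 93.97 CPM in MPNST-CM. In TRAP1 KO Mφ, Tap1 had 135, 154 and 157 CPM in control medium and 130.2, 136 and 148 CPM in MPNST-CM. In WT Mφ all MPNST-CM libraries were below control medium, and in TRAP1 KO the media overlapped. In WT M2, Tap1 had 69.004, 65.1 and 70.8 CPM in control medium and 57.97, 55.4 and 52.3 CPM in MPNST-CM. In TRAP1 KO M2, Tap1 had 73.4, 79.9 and 79.997 CPM in control medium and 138, 133 and 135 CPM in MPNST-CM. TRAP1 KO M2 was higher in MPNST-CM than in control medium, whereas in WT M2 the order was the opposite, without overlap in either genotype. The genotype difference in M2 in MPNST-CM was 2.45-fold (log2 fold change 1.29 ± 0.086, adjusted p = 3.52e-12). In Mφ in MPNST-CM it was 1.55-fold (log2 fold change 0.63 ± 0.083, adjusted p = 8.73e-07). In Mφ in control medium the genotypes overlapped, and the call (log2 fold change 0.25 ± 0.083, adjusted p = 0.0415) was lost without replicate 2 or 3 of TRAP1 KO Mφ in control medium or replicate 1 or 3 of WT Mφ in control medium (log2 fold change between 0.17 and 0.26, adjusted p between 0.0712 and 0.244). MPNST-CM lowered Tap1 in WT Mφ (log2 fold change -0.49 ± 0.083, adjusted p = 9.36e-05) and in WT M2 (log2 fold change -0.31 ± 0.086, adjusted p = 0.00963), the latter lost without replicate 1 or 3 of WT M2 in MPNST-CM or replicate 2 or 4 of WT M2 in control medium (log2 fold change between -0.27 and -0.24, adjusted p between 0.0507 and 0.1102). It raised Tap1 1.74-fold in TRAP1 KO M2 (log2 fold change 0.80 ± 0.084, adjusted p = 1.51e-08), while in TRAP1 KO Mφ the difference was not called (log2 fold change -0.11 ± 0.083, adjusted p = 0.361). The interaction in M2 was 1.10 ± 0.12, adjusted p = 1.08e-07. In Mφ it was 0.39 ± 0.12, adjusted p = 0.0196, and it was lost without replicate 3 of TRAP1 KO Mφ in MPNST-CM, replicate 1 of TRAP1 KO Mφ in control medium or replicate 2 or 3 of WT Mφ in control medium (log2 fold change between 0.32 and 0.36, adjusted p between 0.05005 and 0.0714).

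Tap2 was at 66.5, 101 and 96.6 CPM in WT Mφ in control medium and at 10.1, 89.98 and 78.5 CPM in MPNST-CM. Tap2 was at 95.5, 109 and 137 CPM in TRAP1 KO Mφ in control medium and at 116, 154 and 162 CPM in MPNST-CM. The lowest of these values was in the WT library with many low genes. Tap2 was at 115, 91.7 and 92.4 CPM in WT M2 in control medium and at 76.5, 111 and 109.8 CPM in MPNST-CM. Tap2 was at 122, 16.6 and 117 CPM in TRAP1 KO M2 in control medium and at 182, 140.2 and 183 CPM in MPNST-CM. The second value in control medium was from the other library with many low genes, and the lowest of the other TRAP1 KO values was 95.5 CPM. With all 24 libraries no comparison of Tap2 was called, including TRAP1 KO against WT in MPNST-CM in Mφ (log2 fold change 1.27 ± 0.59, adjusted p = 0.104) and in M2 (log2 fold change 0.76 ± 0.58, adjusted p = 0.346). With both libraries left out, Tap2 was higher in TRAP1 KO in MPNST-CM in Mφ (log2 fold change 0.73, adjusted p = 0.0195) and in M2 (log2 fold change 0.71, adjusted p = 0.0101), in a choice made after the values were seen. Neither library belongs to the M2 groups in MPNST-CM, and the fit shares its estimate of spread over the 8 groups, so that p in M2 also measures spread in other groups.

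Tapbp encodes tapasin, which bridges TAP and the empty heavy chain during peptide loading. WT Mφ had 291, 312 and 274 CPM of Tapbp in control medium, and 310.3, 232 and 303 CPM in MPNST-CM. TRAP1 KO Mφ had 459, 429 and 479 CPM of Tapbp in control medium, and 389, 367 and 300.5 CPM in MPNST-CM. Control medium was the high group in TRAP1 KO, without overlap, while the media overlapped in WT. WT M2 had 472, 402 and 459.6 CPM of Tapbp in control medium, and 307, 309 and 274 CPM in MPNST-CM. TRAP1 KO M2 had 533, 357 and 469.8 CPM of Tapbp in control medium, and 398, 320.0 and 382 CPM in MPNST-CM. In WT M2 control medium was again above MPNST-CM without overlap, and in TRAP1 KO M2 the media overlapped. Unlike for the heavy chains, the only called genotype difference was in Mφ in control medium, 1.56-fold higher in TRAP1 KO (log2 fold change 0.64 ± 0.13, adjusted p = 7.52e-04). In MPNST-CM the difference was not called in Mφ (log2 fold change 0.32 ± 0.13, adjusted p = 0.0506) or in M2 (log2 fold change 0.31 ± 0.13, adjusted p = 0.0691). It was called in Mφ without replicate 3 of TRAP1 KO Mφ in MPNST-CM or replicate 1 of WT Mφ in MPNST-CM (log2 fold change between 0.39 and 0.42, adjusted p between 0.0176 and 0.0365), and in M2 without replicate 2 of TRAP1 KO M2 in MPNST-CM (log2 fold change 0.39, adjusted p = 0.0341). MPNST-CM lowered Tapbp in WT M2 (log2 fold change -0.58 ± 0.13, adjusted p = 0.00129) and in TRAP1 KO Mφ (log2 fold change -0.37 ± 0.13, adjusted p = 0.0276), the latter lost without replicate 3 of TRAP1 KO Mφ in MPNST-CM or replicate 1 or 3 of TRAP1 KO Mφ in control medium (log2 fold change between -0.37 and -0.27, adjusted p between 0.06399 and 0.156), and also without the 5 far libraries of replicate 1 (log2 fold change -0.46, adjusted p = 0.0934). In TRAP1 KO M2 the fall was not called (log2 fold change -0.30 ± 0.13, adjusted p = 0.0658), but it was without replicate 2 of TRAP1 KO M2 in control medium (log2 fold change -0.44, adjusted p = 0.00538).

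**Figure D3:**
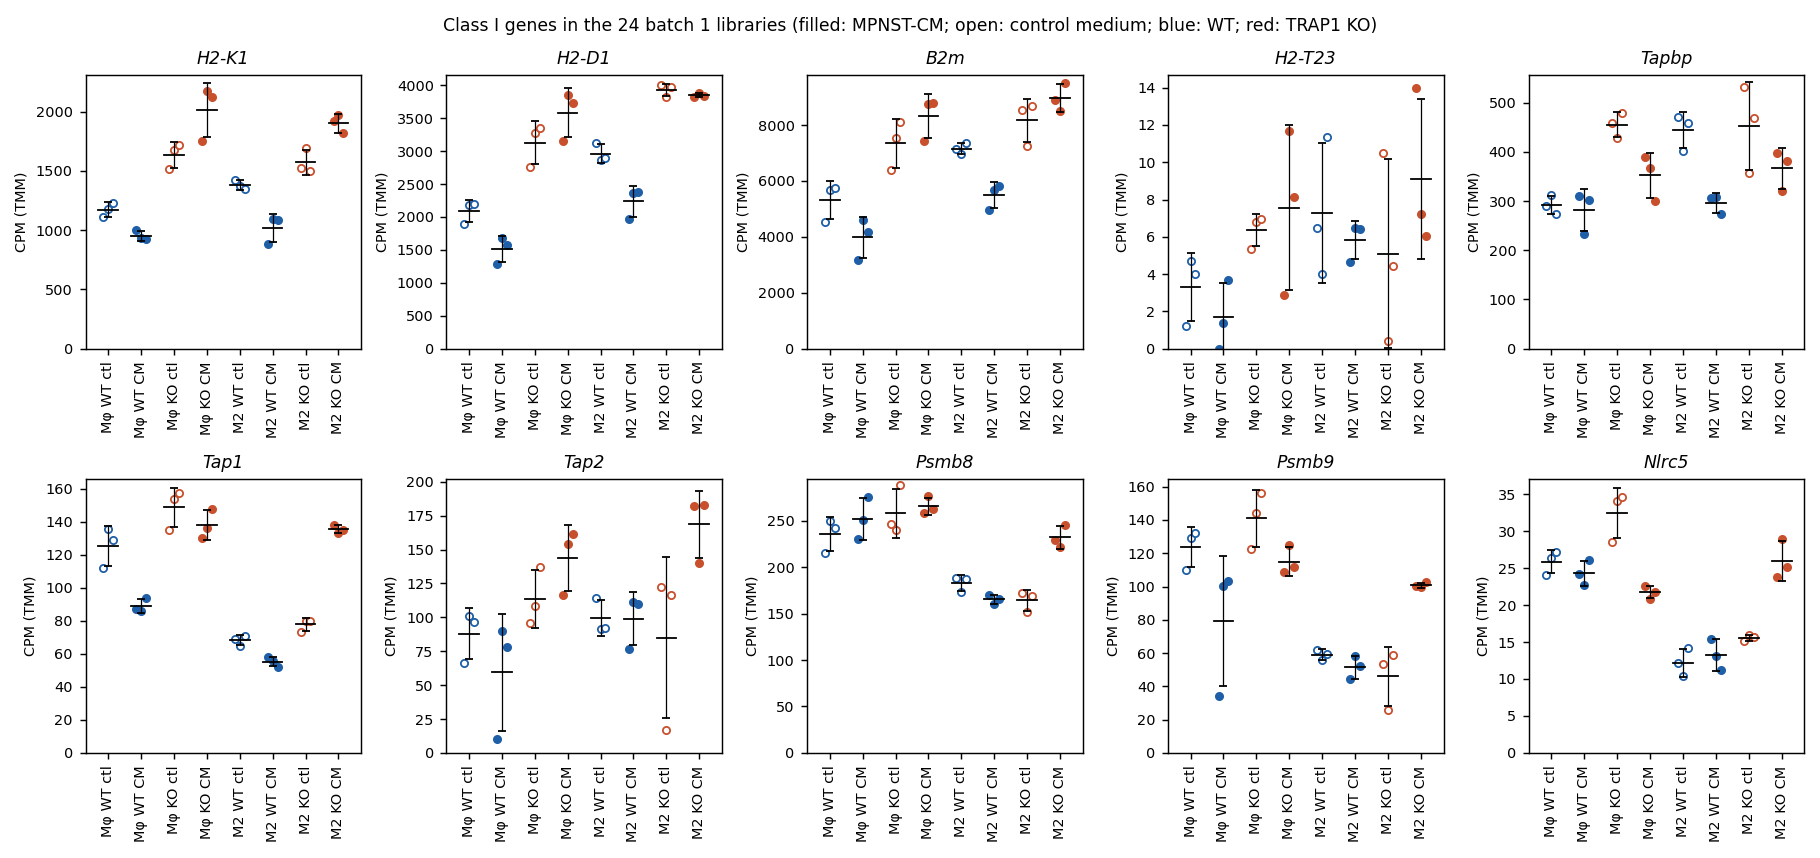
Level of each class I gene (y axis, TMM-scaled CPM from 0) in the 24 libraries of batch 1, by group (x axis; ctl is control medium, CM is MPNST-CM; blue WT, red TRAP1 KO; open control medium, filled MPNST-CM), with the mean (line) and SD (bars, cut at 0) of 3 libraries. The red points of H2-K1, H2-D1 and B2m stand above the blue ones within each cell type in MPNST-CM, Tap1, Psmb8, Psmb9 and Nlrc5 are low in M2 except in TRAP1 KO in MPNST-CM, and 1 point each of WT Mφ in MPNST-CM and TRAP1 KO M2 in control medium lies far down for Tap2 and Psmb9.

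Psmb8 and Psmb9 encode catalytic subunits of the immunoproteasome, which replace Psmb5 and Psmb6 of the constitutive proteasome. Values of Psmb8 in WT Mφ were 215, 249.7 and 242 CPM in control medium and 230.3, 251 and 275 CPM in MPNST-CM. Values of Psmb8 in TRAP1 KO Mφ were 246, 240.1 and 288 CPM in control medium and 259, 276 and 263 CPM in MPNST-CM. The genotypes and the media overlapped in Mφ, and none of these differences was called. Values of Psmb8 in WT M2 were 188, 174 and 188 CPM in control medium and 170.1, 160.2 and 166 CPM in MPNST-CM. Values of Psmb8 in TRAP1 KO M2 were 172, 152 and 169 CPM in control medium and 229, 222 and 246 CPM in MPNST-CM. TRAP1 KO M2 in MPNST-CM was thus the high group of M2, 1.403-fold above WT (log2 fold change 0.49 ± 0.085, adjusted p = 5.22e-05) and 1.41-fold above TRAP1 KO in control medium (log2 fold change 0.50 ± 0.085, adjusted p = 2.99e-05), with an interaction of 0.65 ± 0.12, adjusted p = 2.38e-04. The end of Psmb8 overlaps the antisense gene Gm20496.

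In WT Mφ, Psmb9 had 109.8, 129 and 132 CPM in control medium and 34.2, 100.1 and 103 CPM in MPNST-CM. In TRAP1 KO Mφ, Psmb9 had 122, 144 and 156 CPM in control medium and 109, 125 and 112 CPM in MPNST-CM. Besides the library with many low genes, the lowest value in Mφ was 100.1 CPM. The response of Psmb9 to MPNST-CM in WT Mφ was not called (log2 fold change -0.64, adjusted p = 0.147). Without both libraries with many low genes it was smaller (log2 fold change -0.24, adjusted p = 0.149). TRAP1 KO against WT in Mφ in MPNST-CM gave log2 fold change 0.54, adjusted p = 0.172, and without both libraries 0.13, adjusted p = 0.396. In WT M2, Psmb9 had 61.95, 55.6 and 59.7 CPM in control medium and 44.3, 58.1 and 52.4 CPM in MPNST-CM. In TRAP1 KO M2, Psmb9 had 53.2, 25.9 and 58.8 CPM in control medium and 100.5, 99.6 and 102 CPM in MPNST-CM. The libraries of MPNST-CM-treated TRAP1 KO M2 all lay above the other M2 libraries. The difference from WT was 1.95-fold (log2 fold change 0.97 ± 0.31, adjusted p = 0.0208). The call was lost without replicate 1 or 3 of WT M2 in MPNST-CM (log2 fold change between 0.80 and 0.98, adjusted p between 0.0542 and 0.107), but not with both libraries with many low genes left out (log2 fold change 0.92, adjusted p = 5.72e-08). Neither of those libraries belongs to the compared groups, and the fit shares its estimate of spread over the 8 groups. MPNST-CM raised Psmb9 2.197-fold in TRAP1 KO M2 (log2 fold change 1.14 ± 0.31, adjusted p = 0.00734), and without both libraries the value was log2 fold change 0.86, adjusted p = 1.47e-06. The interaction in M2 was 1.33 ± 0.44, adjusted p = 0.04004, and 11 of the 12 libraries ended this call when left out singly, replicate 3 of TRAP1 KO M2 in control medium being the exception (adjusted p between 0.0506 and 0.114). Without both libraries with many low genes it was called (log2 fold change 1.01, adjusted p = 2.91e-05).

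Nlrc5 encodes the co-activator that binds class I promoters through the RFX complex. Nlrc5 was at 24.1, 26.4 and 27.2 CPM in WT Mφ in control medium and at 24.2, 22.7 and 26.05 CPM in MPNST-CM. Nlrc5 was at 28.6, 34.1 and 34.7 CPM in TRAP1 KO Mφ in control medium and at 22.6, 20.9 and 21.7 CPM in MPNST-CM. It fell in MPNST-CM in TRAP1 KO Mφ (log2 fold change -0.58 ± 0.12, adjusted p = 5.34e-04), where the media did not overlap, while the difference in WT Mφ was not called (log2 fold change -0.092 ± 0.12, adjusted p = 0.668). Nlrc5 was at 12.2, 10.3 and 14.2 CPM in WT M2 in control medium and at 15.4, 13.2 and 11.2 CPM in MPNST-CM. Nlrc5 was at 15.1, 15.9 and 15.7 CPM in TRAP1 KO M2 in control medium and at 23.8, 28.99 and 25.1 CPM in MPNST-CM. In M2 the direction in TRAP1 KO was the opposite one, and Nlrc5 rose 1.67-fold in MPNST-CM (log2 fold change 0.74 ± 0.13, adjusted p = 4.32e-05). It was 1.96-fold higher in TRAP1 KO than in WT in M2 in MPNST-CM (log2 fold change 0.97 ± 0.13, adjusted p = 1.23e-06). In Mφ in MPNST-CM, where H2-K1, H2-D1 and B2m had risen, the difference in Nlrc5 was -0.16 ± 0.12, adjusted p = 0.332. In control medium the genotype difference was not called in Mφ (log2 fold change 0.32 ± 0.12, adjusted p = 0.07196) or M2 (log2 fold change 0.35 ± 0.14, adjusted p = 0.0818). It was called in Mφ without replicate 1 of TRAP1 KO Mφ in control medium (log2 fold change 0.41, adjusted p = 0.0372), and in M2 without replicate 4 of WT M2 in control medium (log2 fold change 0.46, adjusted p = 0.0481). The interaction in M2 was 0.62 ± 0.19, adjusted p = 0.0209, lost without replicate 2 of TRAP1 KO M2 in MPNST-CM, replicate 3 of WT M2 in MPNST-CM or replicate 4 of WT M2 in control medium (log2 fold change between 0.47 and 0.53, adjusted p between 0.0687 and 0.113). In Mφ it was -0.49 ± 0.17, adjusted p = 0.0505, and it was called without replicate 2 of WT Mφ in MPNST-CM or replicate 1 of TRAP1 KO Mφ in control medium (log2 fold change between -0.57 and -0.53, adjusted p between 0.0274 and 0.0458). This negative interaction was also called with a term for the replicate number (-0.48, adjusted p = 0.03997) and without the 5 far libraries of replicate 1 (-0.58, adjusted p = 0.0341).

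The third question was how M2 cells differed from Mφ. In WT cells in control medium the called heavy and light chains and Tapbp were higher in M2, and Tap1, the immunoproteasome genes and Nlrc5 were lower. Of the 10, 4 were higher and 4 lower, beside 37.2% of all genes differing (median log2 fold change of the 10 genes 0.21, of all genes tested -0.035). The summed level of the 8 dendritic cell markers was 10.5 to 17.2 CPM in Mφ and 42.3 to 49.5 CPM in M2 of the same groups. Of these 8 genes 5 passed the filter, and 2 were called higher in M2, 1 lower and 2 neither. The part of these markers in the result was not tested. Nlrc5 fell 2.12-fold (log2 fold change -1.09 ± 0.13, adjusted p = 1.95e-07) and Psmb9 2.09-fold (log2 fold change -1.07 ± 0.30, adjusted p = 0.00996). Tap1 fell 1.84-fold (log2 fold change -0.88 ± 0.085, adjusted p = 3.28e-09), while Psmb8 fell less (log2 fold change -0.36 ± 0.085, adjusted p = 0.00117). Tapbp rose 1.52-fold (log2 fold change 0.61 ± 0.13, adjusted p = 5.20e-04), H2-D1 1.42-fold (log2 fold change 0.50 ± 0.098, adjusted p = 1.73e-04) and B2m 1.34-fold (log2 fold change 0.43 ± 0.12, adjusted p = 0.00507). The rise of H2-K1 (log2 fold change 0.24 ± 0.087, adjusted p = 0.0355) was lost without replicate 1 or 2 of WT Mφ in control medium or replicate 2, 3 or 4 of WT M2 in control medium (log2 fold change between 0.20 and 0.25, adjusted p between 0.0724 and 0.162).

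In TRAP1 KO in control medium, 5 of 10 differed (beside 28.5% of all genes differing, median log2 fold change of the 10 genes -0.38, of all genes tested -0.028), with H2-D1 higher (log2 fold change 0.33 ± 0.098, adjusted p = 0.0115). Tap1 (log2 fold change -0.93 ± 0.084, adjusted p = 1.39e-09), Psmb8 (log2 fold change -0.65 ± 0.085, adjusted p = 8.75e-07), Psmb9 (log2 fold change -1.62 ± 0.31, adjusted p = 5.72e-04) and Nlrc5 (log2 fold change -1.06 ± 0.13, adjusted p = 2.65e-07) were lower. The H2-D1 call was lost without replicate 1 of TRAP1 KO Mφ in control medium (log2 fold change 0.25, adjusted p = 0.0859). Without both libraries with many low genes, Psmb9 was still lower (log2 fold change -1.32, adjusted p = 1.08e-09). In WT in MPNST-CM, 5 of 10 differed (beside 24.9% of all genes, median log2 fold change of the 10 genes 0.086, of all genes tested -0.052), with H2-D1 (log2 fold change 0.56 ± 0.098, adjusted p = 7.81e-05) and B2m (log2 fold change 0.46 ± 0.12, adjusted p = 0.00415) higher. Tap1 (log2 fold change -0.69 ± 0.085, adjusted p = 5.66e-07), Psmb8 (log2 fold change -0.61 ± 0.085, adjusted p = 3.72e-06) and Nlrc5 (log2 fold change -0.87 ± 0.13, adjusted p = 8.98e-06) were lower. Psmb9 was not called there (log2 fold change -0.62 ± 0.31, adjusted p = 0.159), but it was without replicate 1 of WT Mφ in MPNST-CM (log2 fold change -0.98, adjusted p = 0.00165), and without the 5 far libraries of replicate 1 Psmb9 was called lower (log2 fold change -0.81, adjusted p = 0.0284) and H2-K1 higher (log2 fold change 0.30, adjusted p = 3.40e-04). In TRAP1 KO in MPNST-CM, edgeR called 0 of the 10 genes and DESeq2 also 0, with 2 at an unadjusted p under 0.05, beside 11.2% of all genes differing (median log2 fold change of the 10 genes 0.081, of all genes tested 0.0082). Without the 5 far libraries of replicate 1, H2-K1 was called lower in M2 (log2 fold change -0.16, adjusted p = 0.0426). With all 24 libraries Tap1 was at 138 ± 8.92 CPM in Mφ and 135 ± 2.43 CPM in M2, and H2-K1 at 2017 ± 229 CPM and 1903 ± 79.1 CPM. Whether the difference between M2 and Mφ depended on genotype or medium was not tested.

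**Figure D4:**
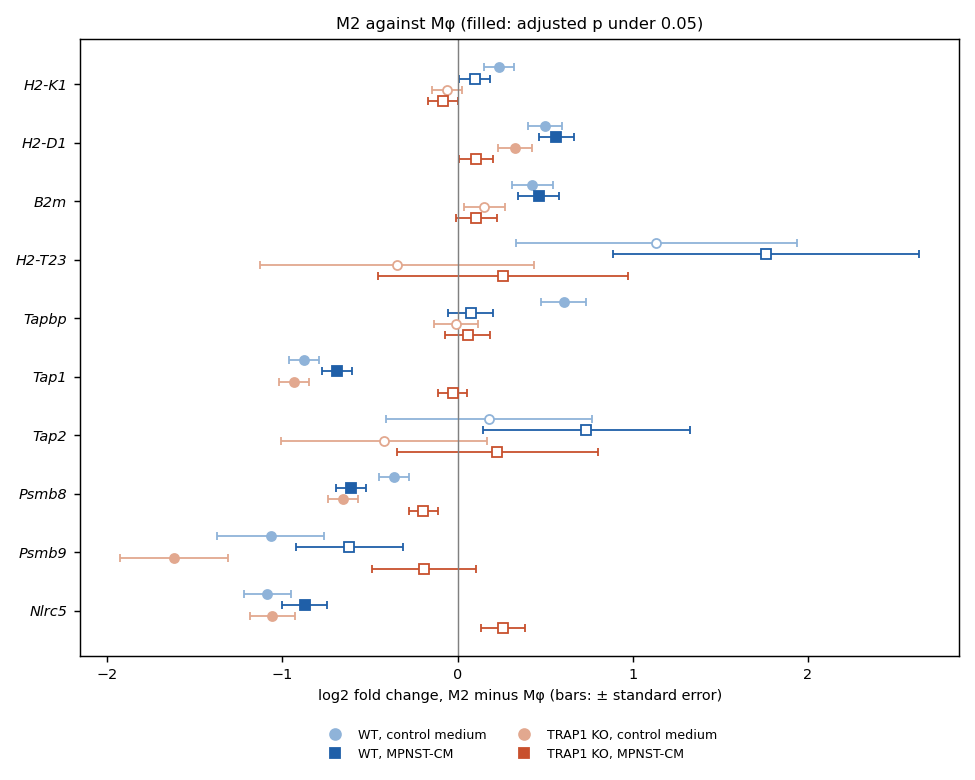
Log2 fold change of each class I gene between M2 and Mφ (x axis, M2 minus Mφ, bars ± standard error), by gene (y axis), in WT (blue) and TRAP1 KO (orange) in control medium (light circles) and MPNST-CM (dark squares), with filled symbols where the adjusted p was under 0.05. Filled symbols of H2-K1, H2-D1, B2m and Tapbp lie to the right of 0 and those of Tap1, Psmb8, Psmb9 and Nlrc5 to the left, and TRAP1 KO in MPNST-CM has no filled symbol.

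Over the 8 group means of log2 CPM, the genes fell into groups. Of 45 pairs, 5 had a Pearson's r over 0.9, among them H2-D1 with B2m (0.992), H2-K1 with B2m (0.932), H2-K1 with H2-D1 (0.909) and Tap1 with Psmb9 (0.914), and the median over pairs was 0.444. Between H2-K1, H2-D1 and B2m on one side and Tap1, Psmb8, Psmb9 and Nlrc5 on the other, r ran from -0.15 to 0.61. H2-T23 with Tap2 had 0.932, which was 0.793 without both libraries with many low genes. Without them 6 pairs were over 0.9. Psmb9 with Nlrc5 moved from 0.848 to 0.946, Psmb8 with Psmb9 from 0.877 to 0.943, and Tap2 with Psmb9 from 0.488 to 0.128. Tap2 moved closer to H2-K1 (0.717 to 0.893), H2-D1 (0.647 to 0.854) and B2m (0.727 to 0.878). H2-T23 did so too, with H2-K1 (0.659 to 0.756), H2-D1 (0.718 to 0.896) and B2m (0.778 to 0.895). The genes share libraries and 8 points are few, and how often pairs of other genes exceed 0.9 was not computed, so these values are descriptions. The genes outside the 10 whose group means were most like the mean z-score of the 10, among 9096 genes with at least 10 CPM in their highest group, were Cd47, which encodes a receptor that restrains phagocytosis (r = 0.987), Zranb1 (0.981), Hmbox1 (0.979), Frs2 (0.976) and Trim17 (0.971). Cd47 was at 300.2 CPM in WT Mφ in MPNST-CM, its lowest group, and 457 CPM in TRAP1 KO Mφ in control medium, its highest.

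**Figure D5:**
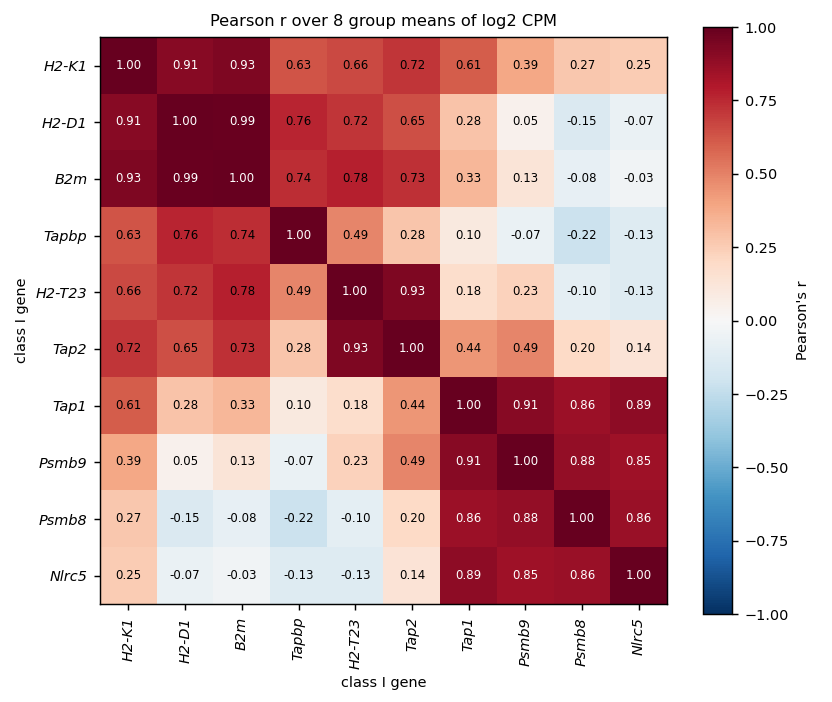
Pearson's r between the class I genes (both axes) over the 8 group means of log2 CPM in batch 1, with red for positive and blue for negative values. One red block holds H2-K1, H2-D1 and B2m (0.91 to 0.99) and the other Tap1, Psmb9, Psmb8 and Nlrc5 (0.85 to 0.91).

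Other genes of the pathway did not all follow the 10. Loading and trimming factors of the endoplasmic reticulum moved the other way. In TRAP1 KO against WT in MPNST-CM, 6 of 8 fell in Mφ and none rose (median log2 fold change -0.29), and in M2 6 fell and Tapbpl, named after its value was seen, rose (median -0.41). Calr, which encodes the loading chaperone calreticulin, was at 1239 ± 236 CPM in WT M2 and 450.2 ± 33.3 CPM in TRAP1 KO M2 in MPNST-CM (log2 fold change -1.46 ± 0.13, adjusted p = 3.40e-09). In Mφ it was at 1024 ± 167 CPM in WT and 530.4 ± 85.2 CPM in TRAP1 KO (log2 fold change -0.95 ± 0.13, adjusted p = 2.51e-06). Of the 3 constitutive proteasome subunits, Psmb6 and Psmb7 fell in TRAP1 KO in MPNST-CM in both cell types. Of the 4 other genes of the inducible proteasome, Psme1 and Psme2, which encode its PA28 activator, rose and Pomp fell in M2 in MPNST-CM, and in Mφ Psmb10 fell and none rose. Psme1 had 87.5 ± 13.2 CPM in WT and 127 ± 4.25 CPM in TRAP1 KO (log2 fold change 0.54 ± 0.089, adjusted p = 2.95e-05).

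Of 17 regulators of class I promoters and of the interferon response, 9 rose and 1 fell in TRAP1 KO M2 in MPNST-CM (median 0.29), and 5 rose and 1 fell in Mφ (median 0.22). Stat2, which carries interferon signals to the nucleus, was 62.6 ± 4.35 CPM in WT M2 and 164 ± 3.19 CPM in TRAP1 KO M2 in MPNST-CM (log2 fold change 1.39 ± 0.093, adjusted p = 4.19e-12). In Mφ in MPNST-CM it was not called (0.22 ± 0.09, adjusted p = 0.0527). Ciita, the class II counterpart of Nlrc5, was the gene that fell in M2, named after its value was seen (log2 fold change -1.07 ± 0.21, adjusted p = 2.26e-04). The receptor chain Ifngr1 rose in TRAP1 KO in MPNST-CM in Mφ (log2 fold change 1.41 ± 0.081, adjusted p = 1.33e-13) and in M2 (log2 fold change 0.96 ± 0.08, adjusted p = 2.86e-10), and of the 4 interferon receptor genes 3 rose in Mφ and 2 in M2. Ifng (at most 1 count per library) and Ifnb1 (at most 4) did not pass the filter. Of 13 other class I heavy chain genes in the table, 7 passed the filter, and in M2 in MPNST-CM 3 rose and 2 fell in TRAP1 KO. H2-T24 (log2 fold change 1.15 ± 0.10, adjusted p = 9.85e-10) and H2-T22 (log2 fold change 1.28 ± 0.24, adjusted p = 3.64e-04) were among those that rose and H2-M2 (log2 fold change -2.51 ± 0.25, adjusted p = 9.10e-09) among those that fell, and paralogs of this family can share reads. The shares of all genes called in these comparisons, given above, are the background of these counts.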

How the data were processed

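Libraries were made with a 3′ mRNA kit that keeps strand and sequenced from 1 end at 75 bases. The authors trimmed the reads (Trimmomatic), checked them (FastQC), aligned them (HISAT2), removed alignments of low mapping quality (SAMtools) and counted them per gene (featureCounts), and the deposited values are raw counts per gene. The submitters' processing notes name mm39, whereas the study's methods name mm10. The strand setting of the counting is not given in the sources used here.

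From these counts, CPM after TMM scaling, log2 fold changes with standard errors and adjusted p-values were computed with edgeR 4.0.16 (limma 3.58.1, R 4.3.3): filterByExpr, robust quasi-likelihood fit of 8 group means over the 24 batch 1 libraries, Benjamini-Hochberg adjustment over 13614 genes, threshold 0.05. The 14 comparisons were 12 pairwise ones and 2 interactions. The standard error is the size of the log2 fold change divided by the square root of F. DESeq2 1.42.0, other scaling, no filter, batch 2, a replicate block, the compared groups alone and leaving out libraries were the alternatives. The fit was tested on simulated data.

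Groups came from the sample labels. The counts also hold 5 columns that no sample's labels describe, which were left unused. The genes and lists were chosen with earlier results of these data known. Named were all 10 genes, Trap1, Xist, up to 4 genes of each list with the lowest adjusted p, and the 5 genes most like the 10, and some list genes are not reported here. The 15 lists held the markers and pathway genes given in the results, class I-like genes (in TRAP1 KO against WT, M2 in MPNST-CM, 2 of 4 tested higher and 1 lower), cross-presentation genes (0 of 6 higher and 2 lower) and IL-4 markers (1 of 5 higher and 3 lower, and summed levels of 684 to 4649 CPM over all groups). Promoters came from RefSeq (GRCm38.p6), and read sharing and overlaps were computed on GENCODE M21 transcripts with Python 3.11.15 and Biopython 1.88. Figures were drawn with matplotlib 3.10.9.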

Additional observations from a re-analysis of the deposited data

Results flagged for a closer look

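Over all 27 libraries, 6 of the 30 sets examined (1 gene in 1 group of 4 libraries) held a library far from the other 3, where chance gives about 1.5. The values are CPM scaled over 27 libraries. In 5 of them the library was of batch 2 and, over all genes, closer to another group than to that of its label. In MPNST-CM, replicate 4 labelled TRAP1 KO M2 had 64.1 CPM of Tap1 against 133 to 138 in the others, and 77.3 CPM of Psmb9 against 99.1 to 102. In control medium, the replicate 4 so labelled had 285 CPM of Tap1 against 72.1 to 78.7, 294 CPM of Psmb8 against 149 to 169, and 46.6 CPM of Nlrc5 against 14.9 to 15.6. In WT Mφ in control medium, replicate 1 of batch 1 had 1913 CPM of H2-D1 against 2193 to 2224.

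TRAP1 KO and WT responded differently to MPNST-CM in 10 combinations of gene and cell type, by the interaction term of edgeR's quasi-likelihood test (log2 response of TRAP1 KO minus that of WT). In Mφ these were H2-K1 (0.60 ± 0.12, adjusted p = 6.80e-04), H2-D1 (0.66 ± 0.14, adjusted p = 7.76e-04), B2m (0.60 ± 0.16, adjusted p = 0.00985) and Tap1 (0.39 ± 0.12, adjusted p = 0.0196). In M2 they were H2-K1 (0.71 ± 0.12, adjusted p = 9.66e-05), B2m (0.52 ± 0.16, adjusted p = 0.0272), Tap1 (1.10 ± 0.12, adjusted p = 1.08e-07), Psmb8 (0.65 ± 0.12, adjusted p = 2.38e-04), Psmb9 (1.33 ± 0.44, adjusted p = 0.04004) and Nlrc5 (0.62 ± 0.19, adjusted p = 0.0209).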

How the results depend on the processing

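Of the 62 calls among the 10 genes over 14 comparisons, DESeq2 made 62 with the same direction, median-of-ratios scaling 61, a fit of the compared groups alone 58 and a table without a filter on low counts 56. Leaving out both libraries with many low genes (chosen after seeing the data) gave 59 of them and 5 further calls. Leaving out the 5 far libraries of replicate 1 (chosen after seeing the data) gave 61 of them and 9 further calls, with 4 of the 10 genes called for TRAP1 KO against WT in M2 in control medium and 1 for M2 against Mφ in TRAP1 KO in MPNST-CM. None of the 5 libraries belongs to an M2 group in control medium. The share of all genes called in this setting is not given here, so these counts are not read as results about the 10 genes. With all 27 libraries only 20 of the 62 calls were made, and leaving out both batch 2 libraries closer to a group other than that of their label (also chosen after seeing the data) brought this to 58. Across these settings 19 of the 62 calls were made in every one. With median-of-ratios scaling the median log2 fold change of all genes was within 0.0303 of 0.

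With all 27 libraries, the number of the 10 genes called was 1 for MPNST-CM in WT Mφ, 0 in TRAP1 KO Mφ, 0 in WT M2 and 1 in TRAP1 KO M2. For TRAP1 KO against WT in control medium it was 3 in Mφ and 0 in M2, and 3 in M2 in MPNST-CM. For TRAP1 KO against WT in Mφ in MPNST-CM, H2-K1, H2-D1 and B2m were still called and Tap1 was not. For M2 against Mφ the number was 5 in WT in control medium, 1 in TRAP1 KO in control medium and 3 in WT in MPNST-CM, and for the interaction 1 in Mφ and 0 in M2. The shares of all genes called in this setting and in those with 1 library left out are not given here, so changes in these counts are not read as results about the 10 genes. Leaving out 1 library at a time gave counts of MPNST-CM in WT Mφ 2 to 4, MPNST-CM in TRAP1 KO Mφ 1 to 4, MPNST-CM in WT M2 2 to 5, MPNST-CM in TRAP1 KO M2 4 to 6, TRAP1 KO against WT in Mφ in control medium 4 to 6, TRAP1 KO against WT in Mφ in MPNST-CM 4 to 5, TRAP1 KO against WT in M2 in control medium 0 to 2, TRAP1 KO against WT in M2 in MPNST-CM 6 to 8, M2 against Mφ in WT in control medium 7 to 8, M2 against Mφ in TRAP1 KO in control medium 4 to 5, M2 against Mφ in WT in MPNST-CM 5 to 6, M2 against Mφ in TRAP1 KO in MPNST-CM 0 throughout, the interaction in Mφ 3 to 5, the interaction in M2 3 to 5.

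Replicate numbers were fitted as a replicate block, which made 59 of the 62 calls and 5 others, and called 2 genes in place of 1 for TRAP1 KO against WT in M2 in control medium. The 3 calls it ended are named in the results. These calls and the comparison with 2 genes all use WT M2 in control medium. Replicate 4 of that group is the only batch 1 library with its number, so the block sets this library aside. Not every pair of libraries with the same number deviated together, so the numbers were not taken to pair the samples, although the 5 far libraries of replicate 1 did so. The correlation of deviations over 77 pairs of the same number was 0.107 on average (-0.214 to 0.521), against -0.0451 over 175 other pairs, and 11 of 24 libraries correlated best with their own number.

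Of the 61 log2 fold changes that turned sign, 3 had been called, all with all 27 libraries (Tap1 and Nlrc5 for MPNST-CM in TRAP1 KO M2, and Nlrc5 in the interaction in M2), and 0 were called after turning. The cause was not tested. With median-of-ratios scaling, these were MPNST-CM in WT M2 Tap2 0.0179, M2 against Mφ in TRAP1 KO in control medium Tapbp 0.00417. With DESeq2, these were MPNST-CM in WT M2 Tap2 0.0188, M2 against Mφ in TRAP1 KO in control medium Tapbp 0.00483. Without a filter on low counts, these were MPNST-CM in WT M2 Tap2 0.0608. With all 27 libraries, these were MPNST-CM in WT Mφ Tapbp 0.0387 and Nlrc5 0.012, MPNST-CM in WT M2 Tap2 0.0525, MPNST-CM in TRAP1 KO M2 H2-D1 0.0884 and Tap1 -0.137 and Nlrc5 -0.00599, TRAP1 KO against WT in M2 in control medium Psmb8 0.0889, M2 against Mφ in TRAP1 KO in control medium H2-K1 0.106 and Tapbp 0.197, the interaction in M2 Nlrc5 -0.173. With the replicate block, these were MPNST-CM in WT M2 H2-T23 0.218 and Tap2 0.0393, TRAP1 KO against WT in M2 in control medium H2-T23 0.0176 and Tapbp -0.00956. With the compared groups fitted alone, these were MPNST-CM in WT M2 Tap2 8.24e-04. Without both libraries with many low genes, these were MPNST-CM in WT M2 Tap2 0.0469, TRAP1 KO against WT in Mφ in MPNST-CM Psmb8 -0.0285, TRAP1 KO against WT in M2 in control medium H2-T23 0.0174 and Tap2 0.25, M2 against Mφ in TRAP1 KO in control medium H2-T23 0.229 and Tap2 0.0825 and Tapbp 0.152, the interaction in Mφ Psmb9 -0.0144. With 27 libraries less both batch 2 libraries closer to another group, these were MPNST-CM in WT Mφ Tapbp 0.042 and Nlrc5 0.0169, MPNST-CM in WT M2 Tap2 0.0451, M2 against Mφ in TRAP1 KO in control medium Tapbp 0.0064. Without the 5 far libraries of replicate 1, these were MPNST-CM in WT M2 Tap2 0.221, M2 against Mφ in TRAP1 KO in MPNST-CM H2-T23 -0.123, the interaction in Mφ Psmb9 -0.00786. Leaving out 1 library at a time, the values that turned ranged over MPNST-CM in WT Mφ Tapbp -0.127 to 0.0696, MPNST-CM in TRAP1 KO Mφ H2-T23 -0.213 to 0.637 and Psmb8 -0.00798 to 0.129, MPNST-CM in WT M2 H2-T23 -0.562 to 0.217 and Tap2 -0.0956 to 0.221, MPNST-CM in TRAP1 KO M2 H2-D1 -0.0383 to 0.00378, TRAP1 KO against WT in M2 in control medium H2-T23 -1.62 to 0.0099 and Tap2 -0.603 to 0.241 and Tapbp -0.128 to 0.151, M2 against Mφ in TRAP1 KO in control medium H2-T23 -1.4 to 0.225 and Tap2 -0.766 to 0.0764 and Tapbp -0.133 to 0.145, M2 against Mφ in WT in MPNST-CM Tapbp -0.047 to 0.149, M2 against Mφ in TRAP1 KO in MPNST-CM H2-T23 -0.183 to 0.72 and Tap1 -0.0681 to 0.0236 and Tapbp -0.0429 to 0.149, the interaction in Mφ Psmb8 -0.118 to 0.0314 and Psmb9 -0.0108 to 0.588.

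Depth limits H2-T23 (0 to 106 counts), and with 3 libraries a group, 17 of the 62 calls were lost without at least 1 library and 10 others were made. Within batch 1, genotype and the difference in Xist cannot be told apart.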
